A study of Homo sapiens with 18 samples.

Results

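MycER was activated for 48 h in RAD21-depleted U2OS-MycER cells, and 4 of the 18 RNA-seq libraries of the series carry the comparison: 2 of siRAD21 cells given 4-hydroxytamoxifen (OHT) and 2 of siRAD21 cells without it. The 4 were taken by their labels. U2OS is a human osteosarcoma line, and the U2OS-MycER cells carry MycER, Myc fused to the hormone-binding part of the estrogen receptor, from a puromycin-selected retroviral vector. All groups share this transgene, and no clone is named for it. Cells were reverse-transfected with a pool of siRNAs against RAD21 (siRAD21) or with an siRNA against Renilla luciferase (siCtrl), and 400 nM OHT or ethanol was added at the same moment, so 48 h is both the time of depletion and the time of activation. The question put to these 4 libraries is what OHT, given to activate MycER, changed in the transcriptome of RAD21-depleted cells. No library holds cells without MycER given OHT. Effects of OHT itself and of active MycER therefore cannot be told apart. The 3 siCtrl OHT and 3 siCtrl libraries at 48 h, and the 2 and 2 siRAD21 libraries at 24 h, are used beside them.

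Myc is a transcription factor that binds DNA as a dimer with Max, best at the E-box, and drives genes of ribosome production, nucleotide synthesis and cell division. MycER is made all the time and stays inactive until OHT binds it. RAD21 closes the cohesin ring, which holds sister chromatids together and, with CTCF, shapes the loops of interphase chromosomes.

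Values are eRPKM, reads scaled by the exon length of the gene and by the depth of the library. RAD21 stood at 11.2 and 11.3 eRPKM in the siRAD21 libraries and at 11.1 and 11.1 in the siRAD21 OHT libraries, against 89.0 to 96.9 in the 6 siCtrl libraries at 48 h. The depletion was thus as deep with OHT as without it, and the log2 fold change of RAD21 on OHT was -0.02. The RAD21 exons share 576 bases with those of the neighbouring gene UTP23, and the library kit does not mark strand, so reads of overlapping genes cannot be told apart. The 4 libraries hold 9653960 to 10912005 reads. The 2 siRAD21 OHT libraries differed from each other by about the sampling noise of their reads, with a chi-square per gene of 0.979 over 11729 genes (z = -1.63). With the noise narrowed for duplicate removal the value was 1.03 (z = 2.27), slightly above it. The other pairs of replicates gave 1.04 to 4.23, the lowest being siRAD21 at 24 h (1.04, z = 3.24, and 1.10 with z = 7.85 when narrowed), which was not merged. The siRAD21 OHT pair was averaged and counted as 1 sample, and counts with both libraries kept separate are given beside the main ones. Its spread is borrowed from the other groups in the limma fit, which assumes that the sample varies as they do. The siRAD21 pair at 24 h adds its narrow spread to that shared estimate as 2 samples. If those 2 are not separate cultures, the estimate and the errors of the 24 h effect are too small. In bulk RNA, fewer cells of a kind and less RNA per cell cannot be told apart.

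Of the 10 osteoblast lineage genes tested, 4 were lower and 1 higher. The osteoblast regulator RUNX2 was measured at 6.23 and 5.19 eRPKM in the siRAD21 libraries and at 2.04 and 1.90 with OHT, and SPP1 at 14.8 and 14.9 against 7.54 and 7.02, while the osteoblast factor SP7 stayed at or below 0.17 in all 4. The homeobox gene MSX1 was the one called higher, at 7.29 and 8.45 against 10.9 and 11.8, a call lost under 4 alternatives. The blood markers CD3E and HBB were listed at 0 in all 4 and PTPRC at 0.15 or less, and 1 of the 4 blood markers tested was called higher. This was the T cell gene CD3D, with 8 reads without and 24 with OHT, and the call was lost under 6 alternatives. The summed level of the 14 immune and blood markers was 15.9 to 17.2 without and 17.4 to 18.2 with OHT. Endothelial markers were low as well: PECAM1 lay between 0.53 and 0.70 eRPKM and VWF between 0.19 and 0.61. Of the 7 epithelial markers tested, 1 was called higher and 2 lower, and 5 had a log2 fold change below 0 (median -0.28). The epithelial adhesion gene EPCAM was measured at 2.56 and 3.82 eRPKM without and 7.30 and 6.82 with OHT, and CDH1 at 1.07 and 1.22 against 0.56 and 0.87. No mitochondrially encoded RNA of the 27 looked for is in the table.

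On OHT, 1803 of the 14993 genes tested were higher in RAD21-depleted cells (12%) and 2269 were lower (15.1%), called where limma gave a Benjamini-Hochberg adjusted p under 0.05 and the log2 fold change exceeded 0.5 in size. The median log2 fold change of all genes tested was -0.01, and 457 rises and 610 falls passed 1. With the 2 siRAD21 OHT libraries kept separate, 1853 genes were higher and 2428 lower. In each of the 4072 called genes the 2 OHT libraries lay on one side of the 2 others, and this also held for 82.6% of all genes tested. Changes are given as log2 fold changes of eRPKM + 0.5, a scale that understates the change of genes with low values.

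**Figure D1:**
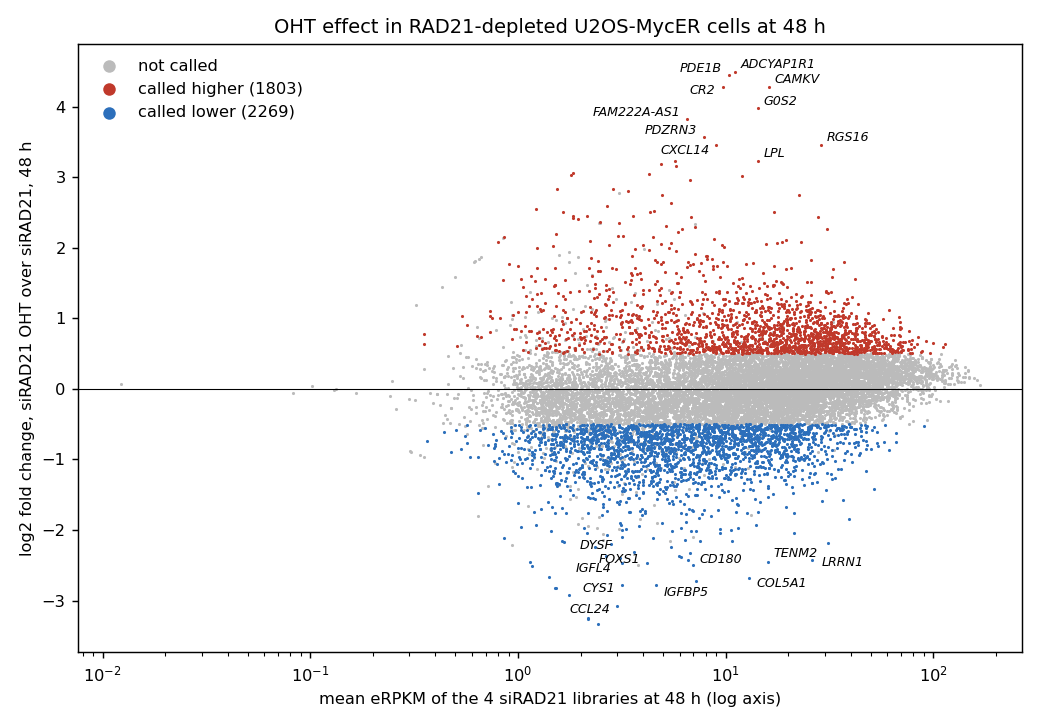
Each point is a gene tested, with its mean eRPKM over the 4 siRAD21 libraries at 48 h on a log axis and the log2 fold change of siRAD21 OHT over siRAD21 cells on the vertical axis. Red points are the 1803 genes called higher and blue points the 2269 called lower, and the 10 named rises lie between 3.23 and 4.50, far above the bulk of the called genes.

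The largest rises were of genes barely expressed without OHT, in siRAD21 cells and also in siCtrl cells at 48 h. ADCYAP1R1 (chr7:31091923-31151088, coordinates here and for all genes in GRCh37), the receptor of the neuropeptide PACAP, went from 0.537 and 0.442 eRPKM to 21.5 and 22.04, a log2 fold change of 4.50 ± 0.18 (SE; limma, adjusted p = 3.3e-09). PDE1B (chr12:54943385-54973023), a phosphodiesterase that degrades cyclic nucleotides, went from 0.581 and 0.337 to 19.8 and 20.6, and 443 of its exon bases are shared with PPP1R1A. CR2 (chr1:207626369-207663240), a complement receptor best known from B cells, rose from 0.549 and 0.447 to 18.5 and 19.2 eRPKM. All 3 were near-silent without OHT and well expressed with it, and the lack of overlap between libraries was a condition of their choice. In siCtrl cells at 48 h they rose as well, from means of 0.945, 1.41 and 0.877 eRPKM, with log2 fold changes of 3.76, 3.67 and 3.37. The rise was called larger in siRAD21 cells for all 3 in the test of the difference described further on.

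CAMKV (chr3:49895421-49907368), a kinase-like protein of neurons, moved from 1.02 and 1.24 to 30.3 and 31.9 eRPKM. G0S2 (chr1:209848757-209849735), an inhibitor of fat breakdown, moved from 1.33 and 1.22 to 27.8 and 27.2. The long non-coding RNA FAM222A-AS1 (chr12:110171971-110211313) was measured at 0.317 and 0.565, which is 8 reads in all, and at 12.3 and 13.02 with OHT. The ubiquitin ligase gene PDZRN3 (chr3:73431582-73674092) went from 0.783 and 0.818 to 14.2 and 15.6. For these 4 genes the log2 fold changes were 4.28, 3.98, 3.82 and 3.56. In siCtrl cells at 48 h they were 3.63, 3.59, 3.20 and 2.38. The difference was called for CAMKV and PDZRN3 and not for G0S2 and FAM222A-AS1.

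The remaining rises of the leading 10 were of genes with more expression in siCtrl cells. RGS16 (chr1:182567758-182573524), which quenches G-protein signals, went from 4.29 and 4.45 to 54.0 and 52.2 eRPKM (3.46 ± 0.14). The chemokine gene CXCL14 (chr5:134906369-134914969) went from 1.25 and 0.944 to 16.9 and 17.0 (3.45 ± 0.15), and 108 of its exon bases lie within SLC25A48. Lipoprotein lipase, LPL (chr8:19759228-19824770), which frees fatty acids from circulating fat, went from 2.13 and 2.59 to 27.3 and 25.4 (3.23 ± 0.11). All 3 passed in limma at adjusted p values of 1e-09 to 8.7e-09.

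The 10 largest falls were chosen in the same way. CCL24 (chr7:75440143-75452674), a chemokine for eosinophils, fell from 6.12 and 5.38 eRPKM to 0 and 0.486. These values are 51 reads against 2, a ratio of 23.5 with a 95% counting interval of 6.19 to 199.4 that covers counting error only. CYS1 (chr2:10196600-10221071), a protein of the primary cilium, fell from 6.202 and 5.66 to 0.457 and 0.412, and IGFBP5 (chr2:217536828-217560272), a secreted binder of insulin-like growth factors, from 9.12 and 7.82 to 0.747 and 0.865. Their log2 fold changes were -2.78 ± 0.16 and -2.78 ± 0.16. CYS1 and IGFBP5 fell nearly as far in siCtrl cells at 48 h (-2.52 and -2.49), and the difference was not called for either. CCL24 fell less there (-1.40), and its difference was called.

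COL5A1 (chr9:137533649-137736689), a fibril collagen, fell from 24.7 and 20.8 eRPKM to 3.07 and 3.15, with a wider error than the others (-2.68 ± 0.43, limma, adjusted p = 0.00021), and its siCtrl libraries at 48 h spread from 7.88 to 17.7. The toll-like receptor relative CD180 (chr5:66475441-66492627) fell from 12.4 and 11.9 to 1.37 and 2.10, and the forkhead factor FOXS1 (chr20:30432106-30433407) from 7.79 and 7.14 to 0.943 and 0.927. IGFL4 (chr19:46542440-46580376), an IGF-like family member, went from 5.44 and 5.99 to 0.362 and 0.889, or 69 reads against 7. For each of these 4 genes the libraries with OHT lay far below those without it.

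The teneurin gene TENM2 (chr5:166406034-167691162), an adhesion molecule of synapses, fell from 30.1 and 24.98 eRPKM to 4.45 and 4.71. The leucine-rich repeat membrane protein LRRN1 (chr3:3841115-3891518) fell from 45.5 and 43.5 to 8.13 and 7.57 (-2.43 ± 0.08), the smallest error of the leading falls. DYSF (chr2:71680691-71913893), the membrane-repair protein dysferlin, fell from 6.03 and 5.04 to 0.587 and 0.695.

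**Figure D2:**
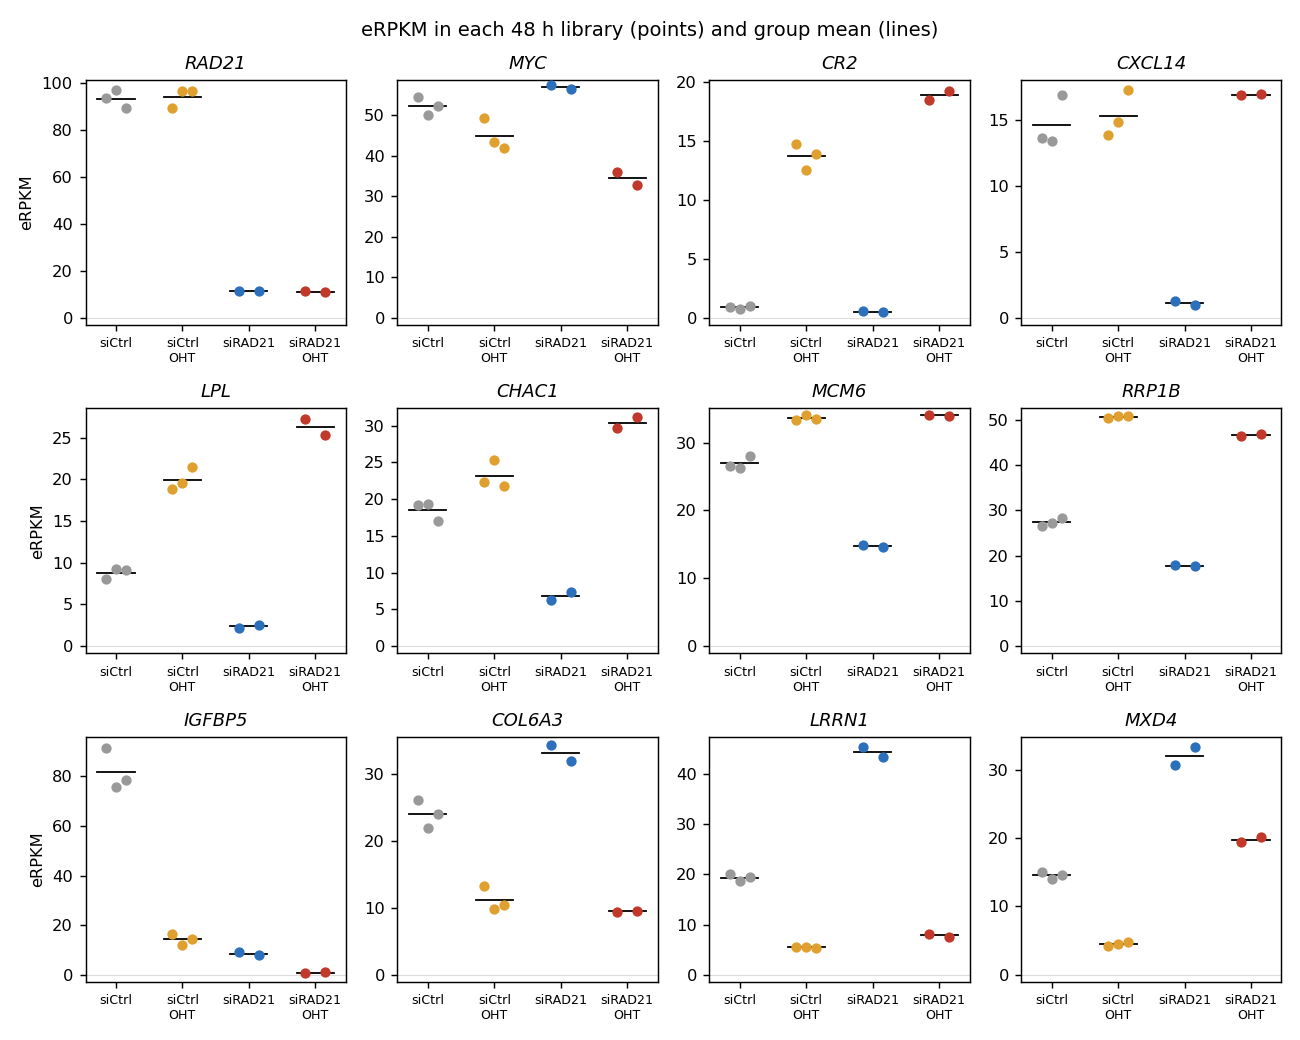
eRPKM of 12 genes in each library at 48 h (points) with the group mean (line), for siCtrl, siCtrl OHT, siRAD21 and siRAD21 OHT cells, each panel on its own linear axis. RAD21 stays between 11.1 and 11.3 in the 4 siRAD21 libraries, CXCL14 and CHAC1 are lowest in siRAD21 cells without OHT, and LRRN1 and MXD4 are highest there.

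Among genes of cell growth, those of ribosome biogenesis had the largest share called higher. Of the 70 ribosome biogenesis genes tested, 49 (70.0%) were called higher, against 12% of all genes tested, and 0 lower, 69 had a log2 fold change above 0, and the median was 0.59 against -0.01 over all genes tested. Their summed level went from 2144 to 2202 eRPKM without OHT to 3234 to 3301 with it. The nucleolar protein RRP1B went from 17.9 and 17.7 to 46.3 and 46.9 eRPKM (1.37 ± 0.05, limma, adjusted p = 1.3e-09). LYAR, another nucleolar factor, went from 11.1 and 11.5 to 27.3 and 26.3, and NOLC1, a chaperone of small nucleolar RNPs, from 37.8 and 39.0 to 84.9 and 83.0. After quantile normalization 32 of the 70 were called higher, and the median stayed above 0.

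Enzymes of nucleotide synthesis followed, with 16 of 31 higher, 1 lower and a median of 0.50. DHODH, the mitochondrial step of pyrimidine synthesis, went from 6.38 and 5.78 to 17.3 and 15.6 eRPKM (1.37 ± 0.13). DCTPP1, which clears modified dCTP, went from 20.3 and 24.0 to 52.1 and 52.2, and PPAT, the first committed step of purine synthesis, from 32.1 and 32.6 to 61.5 and 62.3. The paralog CTPS2 fell from 1.19 and 1.39 to 0.533 and 0.503. Of DCTPP1, 645 exon bases are shared with ZNF771.

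Other growth lists had smaller shares called. Translation initiation had 6 members higher and 1 lower of 36 (median 0.28), a share of 16.7% near the 12% of all genes, led by EIF2B3 of the guanine exchange factor eIF2B at 9.22 and 9.46 against 19.5 and 20.3 eRPKM. The translation repressor EIF4EBP1 went from 48.0 and 49.1 to 87.8 and 91.4, whereas its paralog EIF4EBP2 fell from 23.5 and 23.0 to 15.6 and 14.97, a call lost with the GC and length trend removed (-0.46). The tRNA synthetases had 5 higher and 0 lower of 20 (median 0.43), among them both chains of the phenylalanine enzyme: FARSA went from 30.8 and 29.9 to 52.3 and 52.8 and FARSB from 15.5 and 14.3 to 24.4 and 23.9. Chaperones had 7 higher and 0 lower of 26 with all 26 above 0 (median 0.41). Quantile normalization left 3 tRNA synthetases and 4 chaperones called higher.

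In glycolysis 4 of 24 genes were higher (16.7%, near the 12% of all genes) and 1 lower. Hexokinase HK2, the entry step, went from 9.83 and 9.04 to 32.5 and 31.2 eRPKM (1.71 ± 0.09), ALDOC from 11.5 and 11.5 to 26.8 and 26.8, and the kinase PDK1, which shuts pyruvate dehydrogenase, from 4.62 and 3.85 to 9.63 and 9.16. Among amino acid carriers 5 of 17 were higher (29.4%) and 1 lower (5.88%), with the cationic carrier SLC7A2 at 12.8 and 13.5 against 32.4 and 34.4, the cystine carrier SLC7A11 at 10.8 and 10.6 against 20.1 and 21.2, and the lysosomal carrier SLC36A1 lower at 11.5 and 10.8 against 6.30 and 6.23. Polyamine genes had 4 higher (30.8%) and 1 lower (7.69%) of 13: AMD1, which supplies the aminopropyl groups, went from 28.5 and 30.6 to 51.9 and 51.3, and ODC1, the rate-limiting enzyme, from 76.5 and 82.4 to 114.6 and 112.1. MTAP (0.57) and SAT1 (0.55) were also higher, and the SAT1 call was lost under 2 alternatives. PAOX was the polyamine gene that fell, from 4.24 and 3.58 to 1.44 and 1.68 (-1.10 ± 0.26). Cholesterol synthesis had 8 higher and 0 lower of 25 (5 after quantile normalization), led by DHCR7, its last step, at 22.5 and 22.2 against 55.2 and 54.4 eRPKM (1.27 ± 0.05).

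The E-box recognised by Myc and Max is CACGTG, which reads the same on both strands. RefSeq promoter windows (GRCh38.p14, 250 bases before to 50 after a start site) were matched by symbol to 11071 of the genes tested, 16046 windows in all, since some genes have several start sites. CACGTG stood in 9.20% of these windows, in 11.5% of those of genes called higher and in 6.38% of those of genes called lower, and in 7.26% of all 35116 windows of the table. In the upstream 250 bases alone the shares were 8.12%, 9.33% and 6.03%. With the genes ordered by fold change and cut into 10 bins of equal size, the share went from 5.98% in the lowest bin to 12.2% in the highest. These shares are descriptions of the windows and not of binding.

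**Figure D3:**
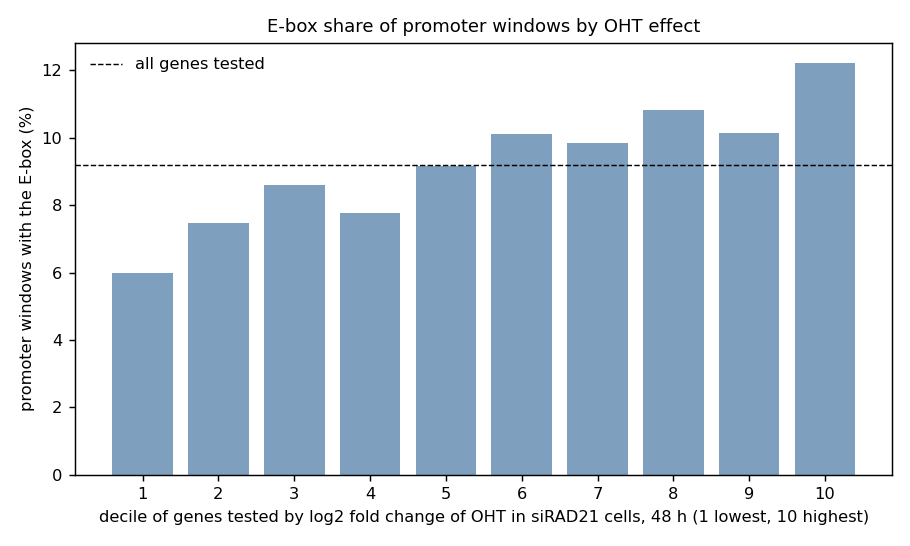
Percent of promoter windows that hold the E-box in 10 equal bins of the genes tested, ordered by the log2 fold change of OHT in siRAD21 cells at 48 h, with the share over all windows as a dashed line at 9.20%. The lowest bin holds 5.98% and the highest 12.2%.

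Ribosome biogenesis genes carried the E-box in 27 of 71 windows (38.0%), but in the upstream 250 bases alone in 9 of 71 (12.7%, against 8.12% over all genes tested). In 22 of these 27 it lay within 50 bases of the start site, against 564 of 1476 windows (38.2%) over all genes tested. In nucleotide synthesis 10 of 42 windows held it, and in collagens and matrix 1 of 39. The 6 sites below are shown because they belong to the ribosome biogenesis genes with the largest rises among those with a single window and an E-box that close to the start. Capitals mark CACGTG, each line runs 5′ to 3′ on the strand of the gene, and the order is by fold change.
NOP2: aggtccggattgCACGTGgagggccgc
RRP9: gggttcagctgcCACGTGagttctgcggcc
MRTO4: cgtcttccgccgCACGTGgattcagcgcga
NAT10: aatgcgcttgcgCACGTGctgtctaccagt
PWP2: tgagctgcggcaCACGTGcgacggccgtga
MYBBP1A: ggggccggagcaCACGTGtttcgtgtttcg

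In GRCh38.p14 these sites lie at chr12:6568242-6568268 (NOP2, minus strand), chr3:51941892-51941921 (RRP9, minus), chr1:19251807-19251836 (MRTO4, plus), chr11:34105602-34105631 (NAT10, plus), chr21:44107388-44107417 (PWP2, plus) and chr17:4555340-4555369 (MYBBP1A, minus). In RRP9 and NAT10 the E-box begins 5 and 15 bases before the start site, and in the other 4 it begins at base 36, 15, 2 and 28 of the transcript, counted from 1 at the start. The log2 fold changes of the 6 genes were 0.94, 0.86, 0.81, 0.80, 0.79 and 0.77. NOP2 and NAT10 modify ribosomal RNA, RRP9 and PWP2 belong to the small-subunit processome, MRTO4 acts in large-subunit assembly, and MYBBP1A is a nucleolar protein.

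Longer stretches are given for 3 nucleotide enzymes that rose and for CR2, with the E-box in capitals. CR2 was picked by hand from the 10 leading rises, and the promoters of the others are not described here. A stretch is also given for CHAC1, a stress gene described further on, where the capitals mark TTGCATCA, the reverse complement of TGATGCAA. TGATGCAA is a site that the stress factor ATF4 is known to bind, and it was searched on both strands after the values had been seen. It stood in 0.580% of all windows of genes tested, in 1.13% of those of genes called higher and in 0.548% of those of genes called lower. Of the 10 bins by fold change, the lowest held it in 0.931% of windows and the highest in 0.977%.
DHODH: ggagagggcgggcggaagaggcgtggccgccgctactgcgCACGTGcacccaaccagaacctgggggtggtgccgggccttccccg
DCTPP1: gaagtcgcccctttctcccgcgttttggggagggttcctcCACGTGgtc
PPAT: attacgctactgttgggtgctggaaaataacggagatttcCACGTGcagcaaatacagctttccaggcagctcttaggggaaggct
CR2: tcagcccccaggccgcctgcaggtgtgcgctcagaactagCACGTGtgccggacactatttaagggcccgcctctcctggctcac
CHAC1: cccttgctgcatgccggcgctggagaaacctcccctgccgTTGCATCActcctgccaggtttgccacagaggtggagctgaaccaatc

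In GRCh38.p14 these lie at chr16:72008545-72008630 (DHODH, plus strand), chr16:30429801-30429849 (DCTPP1, minus), chr4:56435752-56435837 (PPAT, minus), chr1:207454243-207454327 (CR2, plus) and chr15:40953222-40953309 (CHAC1, plus). The motif begins 159, 9, 182, 45 and 209 bases before the start site, in that order. Each of the 5 genes has a single window in the table.

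Genes of DNA replication rose in RAD21-depleted cells. In licensing and firing of origins 16 of 30 genes were higher and 0 lower (median 0.51), at the fork 17 of 29 were higher and 1 lower (median 0.58), and in the replication checkpoint 7 of 21 were higher and 0 lower (median 0.32). The helicase subunit MCM6 went from 14.9 and 14.7 to 34.05 and 33.97 eRPKM (1.18 ± 0.06, limma, adjusted p = 2.5e-08), CDC45, which joins the helicase, from 17.6 and 21.2 to 39.0 and 39.0, and the firing factor MCM10 from 13.6 and 13.5 to 25.7 and 26.7.

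Within complexes, not every subunit was called. All 4 GINS subunits were higher, with log2 fold changes of 0.73 for GINS1, 0.78 for GINS2, 0.88 for GINS3 and 0.73 for GINS4. Of the MCM2 to MCM7 helicase ring, MCM2 (0.79), MCM3 (0.64), MCM4 (0.80) and MCM6 were higher, while MCM5 (0.44) and MCM7 (0.35) lay below the fold threshold. At the fork the primase subunit PRIM1 went from 16.8 and 19.6 to 38.5 and 37.1, the histone chaperone subunit CHAF1B from 4.87 and 4.56 to 10.8 and 9.07, and the polymerase epsilon subunit POLE3 from 22.4 and 24.7 to 44.3 and 43.1. The small polymerase delta subunit POLD4 was the fork gene that fell, from 30.7 and 33.3 to 17.1 and 18.6.

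In the checkpoint the fork-protection protein TIPIN went from 15.3 and 17.9 to 44.4 and 43.8 eRPKM (1.39 ± 0.10), the phosphatase CDC25A from 17.9 and 18.9 to 41.3 and 41.8, and the single-strand binding subunit RPA2 from 24.6 and 25.9 to 45.2 and 42.9. Double-strand break repair had 15 higher (34.1%, against 12% of all genes tested) and 0 lower of 44 (median 0.35). The checkpoint kinase CHEK2 went from 14.4 and 15.03 to 34.7 and 35.4, PALB2, which brings BRCA2 to breaks, from 11.6 and 11.1 to 25.9 and 26.2, and RBBP8, which starts end resection, from 19.9 and 21.9 to 45.2 and 45.6. CHEK2 shares 293 exon bases with HSCB.

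Among G1/S cyclin and E2F genes 5 of 27 were higher (18.5%) and 0 lower (8 higher with the effect of duplicate removal undone), with cyclin CCNE1 at 32.8 and 32.7 against 59.8 and 62.2 eRPKM and E2F2 at 13.2 and 13.02 against 22.9 and 23.9. G2/M genes had 9 of 64 higher (14.1%, near the 12% of all genes, and 4 genes after quantile normalization) and 0 lower, with a median of 0.24. MAD2L1 of the spindle checkpoint went from 35.5 and 40.5 to 61.4 and 60.4, a call lost after quantile normalization (0.49). Of the 7 CDK inhibitors tested, CDKN1C (9.35 and 10.1 against 5.21 and 4.38), CDKN2C (19.9 and 21.4 against 13.3 and 10.9) and CDKN2D (10.6 and 11.1 against 6.19 and 7.01) were lower and none was higher. CDKN1A, the p53-induced inhibitor p21, had a log2 fold change of 0.08, CDKN1B -0.29, CDKN2B -0.35 and CDKN3 0.27.

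The amino acid and stress response under ATF4 rose in part. Of 32 genes 13 were higher (40.6%, against 12% of all genes tested) and 0 lower (median 0.29). CHAC1, which degrades glutathione, went from 6.34 and 7.35 to 29.7 and 31.1 eRPKM (2.08 ± 0.14, limma, adjusted p = 2.1e-07). The serine synthesis enzyme PSAT1 went from 18.1 and 21.0 to 47.4 and 46.7, and asparagine synthetase ASNS from 25.2 and 27.2 to 62.3 and 59.6. Without OHT their levels in siRAD21 cells were below those of the siCtrl libraries, where CHAC1 lay between 17.0 and 19.4, PSAT1 between 37.8 and 41.0 and ASNS between 43.3 and 46.0.

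Among the genes of the matrix many were lower. In collagens and matrix 25 of 40 genes (62.5%, against 15.1% of all genes tested) were lower and 0 higher (median -0.71), and the summed level of the list went from 1217 to 1218 eRPKM to 774 to 794. After COL5A1, COL1A1, the main bone collagen, fell from 65.8 and 57.1 to 16.7 and 16.7 (-1.84 ± 0.46) and COL6A3 from 34.3 and 31.9 to 9.43 and 9.44 (-1.76 ± 0.15). Among integrins and laminins 12 of 27 were lower (44.4%) and 2 higher (7.41%, median -0.36). The perlecan gene HSPG2 fell from 18.3 and 12.4 to 5.14 and 5.23, ITGB8 from 20.3 and 19.6 to 6.70 and 7.44 and ITGA7 from 11.1 and 10.5 to 3.94 and 3.53, while LAMC3 rose from 3.29 and 3.70 to 8.15 and 8.37 and ITGA4 from 1.65 and 1.58 to 4.30 and 3.44. The exons of HSPG2 share 2122 bases with LDLRAD2 and those of ITGA4 share 2813 with CERKL.

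Of the 11 genes of the insulin-like growth factor axis tested, 7 were lower, 0 were higher and none had a log2 fold change above 0 (median -0.69). After IGFBP5, IGFBP7 fell from 28.7 and 26.7 to 10.5 and 11.5 eRPKM and IGFBP4 from 1.27 and 1.49 to 0.510 and 0.455. The other 4 that fell were IGFBP6 (-0.92), the scavenging receptor IGF2R (-0.87), the RNA-binding protein IGF2BP1 (-0.69) and the signalling receptor IGF1R (-0.68). IRS1 (-0.47), INSR (-0.31), IGF2BP3 (-0.29) and IGF2BP2 (-0.07) were not called.

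TGF-beta and BMP genes had 4 higher and 8 lower of 26. The 15.4% higher is near the 12% of all genes tested, and the 30.8% lower stands against 15.1%. The ligand BMP6 went from 1.86 and 1.77 to 7.84 and 7.18 eRPKM, the decoy receptor BAMBI from 3.61 and 4.26 to 15.5 and 13.1, and the ligand chain INHBE from 5.19 and 4.58 to 13.9 and 13.3. The latent TGF-beta binding proteins LTBP1 (11.2 and 10.6 against 3.49 and 3.57) and LTBP2 (31.9 and 29.1 against 11.2 and 11.4) fell, as did PMEPA1, a TGF-beta target and inhibitor, from 48.6 and 46.6 to 19.9 and 19.3. Contractile and SRF/YAP targets had 5 of 24 lower and 0 higher, led by TGFB1I1 at 15.5 and 15.9 against 5.72 and 7.31. The 5 lower were 20.8%, against 15.1% of all genes tested. That count was 8 after quantile normalization, 2 with the GC and length trend removed and 3 without replicate 2 of siRAD21 OHT.

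Interferon response genes had 12 of 36 lower and 2 higher (median -0.31): SAMD9L fell from 10.6 and 11.8 to 2.34 and 2.43 eRPKM and SAMD9 from 26.1 and 27.6 to 12.4 and 13.1, while the interferon-induced gene IFIT5 rose from 12.2 and 12.5 to 19.8 and 21.1. Lysosome and autophagy genes had 11 of 48 lower and 2 higher (median -0.32), with the autophagy kinase ULK1 at 13.1 and 11.4 against 4.86 and 4.91 and the peptidase TPP1 at 23.0 and 20.1 against 10.4 and 10.4. NF-kB and cytokine genes had 4 higher and 4 lower of 23, with the chemokine CXCL8 higher at 14.9 and 15.1 against 36.03 and 35.8 and TNFAIP2 lower at 16.4 and 15.6 against 8.98 and 10.3. NF-kB shares were 17.4% in each direction, against 12% higher and 15.1% lower of all genes tested. Interferon shares were 33.3% lower and 5.56% higher, and those of lysosome and autophagy genes 22.9% lower and 4.17% higher. The clock list had 0 higher and 3 lower of 19, and this 15.8% is near the 15.1% of all genes, with ARNTL, the partner of CLOCK, at 12.1 and 11.6 against 7.65 and 6.46.

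Of 36 p53 targets 5 were lower (13.9%, near the 15.1% of all genes tested) and 0 higher, with a median of 0.01. Among these 5 were TP53INP1, APAF1 and PERP. TP53INP1 fell from 47.6 and 48.6 to 21.3 and 21.8 eRPKM, APAF1 from 8.97 and 9.19 to 4.97 and 5.10 and PERP from 17.1 and 17.1 to 11.3 and 11.2. The BCL2 family had 2 higher and 1 lower of 18 (11.1% and 5.56%), no more than the 12% and 15.1% of all genes tested. In it the pro-apoptotic BMF fell from 6.62 and 6.15 to 0.889 and 0.895 (-2.31 ± 0.20) and the pro-survival BCL2A1 rose from 0.875 and 1.77 to 3.84 and 4.54. BIK, the last of the 3 members called of 18 tested, was higher at 11.1 and 12.2 against 18.3 and 18.8, and its log2 fold change of 0.65 fell below the adjusted p threshold without replicate 1 of siRAD21 (0.58).

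In the Myc network 3 of 11 genes were lower (27.3%, against 15.1% of all genes tested) and 0 higher. The MYC row fell from 57.5 and 56.4 to 35.97 and 32.9 eRPKM (-0.72 ± 0.08, limma, adjusted p = 1.6e-05). It can hold reads of the MycER transgene beside those of the endogenous gene, and the values do not separate them. The antagonist MXD4 fell from 30.8 and 33.5 to 19.4 and 20.1, and MNT from 10.6 and 9.94 to 6.23 and 6.65 (-0.63 ± 0.24, limma, adjusted p = 0.042), a call lost under 13 of the alternatives. MAX, the partner of Myc, was not called (0.39), nor were MXD1 (0.41), MXI1 (0.28), MXD3 (-0.31), MGA (0.22), MLX (0.13), MLXIP (0.29) and MYCL (-0.33).

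Of the 18 cohesin and CTCF genes tested, 1 was higher and 1 lower on OHT (5.56% each, below the 12% and 15.1% of all genes tested). CDCA5, sororin, which protects cohesion in G2, went from 38.8 and 42.8 to 64.3 and 65.6 eRPKM, a call lost after quantile normalization (0.49), and the loader NIPBL from 21.5 and 17.99 to 14.1 and 12.8. The NIPBL call was lost with the GC and length trend removed (-0.34), without replicate 1 of siRAD21 (-0.41) and without replicate 2 of siRAD21 OHT (-0.47). The ring partners SMC3 (0.33) and SMC1A (0.22), the subunits STAG1 (0.24) and STAG2 (0.05) and CTCF (0.09) were not called. Among estrogen receptor targets, listed because OHT binds that receptor, 2 of 11 were higher and 4 lower: the carbonic anhydrase CA12 went from 5.26 and 5.75 to 40.3 and 39.3 (2.75 ± 0.09) and XBP1 from 31.2 and 33.5 to 53.1 and 53.5, while GREB1 fell from 3.74 and 3.63 to 1.19 and 1.36. The shares of this list were 18.2% higher and 36.4% lower. ESR1 itself lay between 0.69 and 0.95 in the 4 libraries, PGR at 0.03 or less and TFF1 at 0.

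Next, the OHT effect in siRAD21 cells was compared with that in siCtrl cells at 48 h, which shares no library with it. In siCtrl cells 1165 genes were higher (7.77%) and 1517 lower (10.1%). Of the 1803 genes higher in siRAD21 cells, 867 (48.1%) were also higher in siCtrl cells, which is 74.4% of the siCtrl list. Of the 2269 lower genes, 1119 (49.3%) were also lower there, 73.8% of that list. Only 5 of the rises and 10 of the falls were called in the opposite direction in siCtrl cells. Across the 14993 genes the 2 effects correlated at r = 0.746, a description over genes, which are not independent replicates.

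The difference between the 2 effects was itself tested as an interaction. The OHT effect was more positive in siRAD21 cells for 409 genes (2.73%) and more negative for 416 (2.77%). Of the 409, 285 were called higher in siRAD21 cells, and 205 of these were not called in siCtrl cells. Among the 409, 76 were lower in siCtrl cells, 5 of which were called higher in siRAD21 cells. Of the 416, 315 were called lower in siRAD21 cells, and 238 of these were not called in siCtrl cells. The difference is computed from these same 2 effects, so the splits follow in part from how the genes were picked. Of all genes tested, 12% were higher and 15.1% lower in siRAD21 cells. With the siRAD21 OHT libraries separate the differences were 499 and 595, and without replicate 1 of siRAD21 at 48 h they were 323 and 234.

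**Figure D4:**
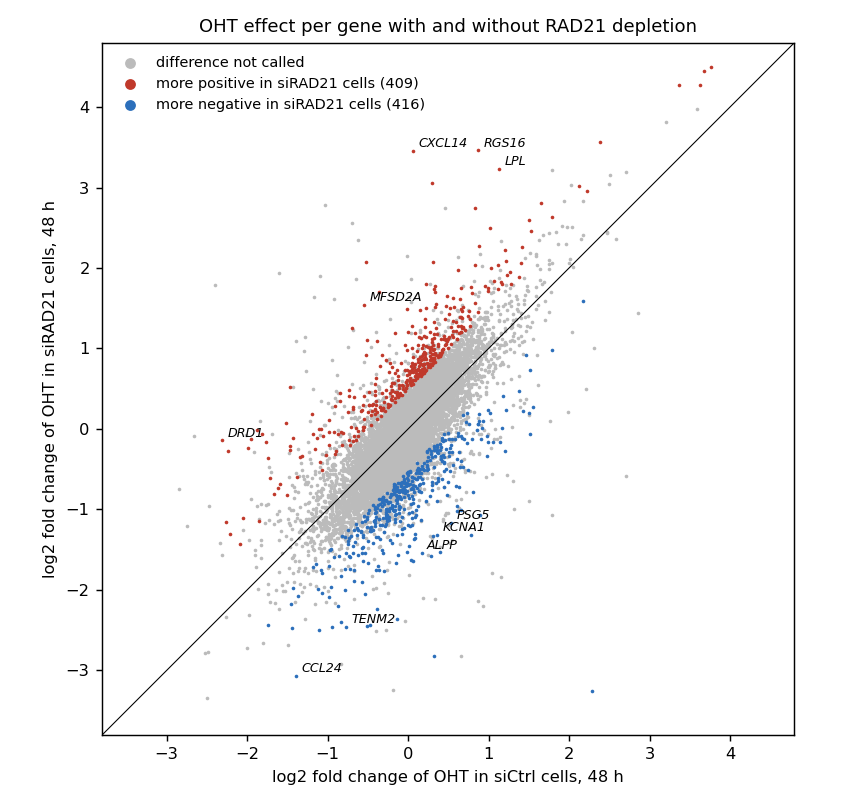
Log2 fold change of OHT for each gene tested in siCtrl cells (horizontal axis) and in siRAD21 cells (vertical axis) at 48 h, with the line of equal effects. Red marks the 409 genes with a more positive and blue the 416 with a more negative effect in siRAD21 cells, and CXCL14 stands at 0.06 in siCtrl and 3.45 in siRAD21 cells.

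CXCL14 differed most. It lay between 13.4 and 16.9 eRPKM in siCtrl and between 13.9 and 17.3 in siCtrl OHT cells, at 1.25 and 0.944 in siRAD21 cells and back at 16.9 and 17.0 in siRAD21 OHT cells, a difference of effects of 3.39 ± 0.18 (limma, adjusted p = 7.2e-07). RGS16 showed the same order at its low end, with 9.68 to 12.9 in siCtrl and 4.29 and 4.45 in siRAD21 cells, but rose further on OHT, to 54.0 and 52.2 against 19.8 to 23.2 (difference 2.59 ± 0.17). LPL lay at 8.05 to 9.20 in siCtrl, 18.8 to 21.5 in siCtrl OHT, 2.13 and 2.59 in siRAD21 and 27.3 and 25.4 in siRAD21 OHT cells (2.10 ± 0.13). MFSD2A, a lipid transporter, moved in opposite directions: it fell in siCtrl cells, from between 11.75 and 11.85 in the 3 libraries to 7.49 to 8.25, and rose in siRAD21 cells from 1.54 and 1.56 to 5.41 and 5.55 (2.09 ± 0.13).

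DRD1, a dopamine receptor, had a difference of 2.17 ± 0.29 and fell in siCtrl cells, from 25.01 to 33.5 eRPKM down to 4.06 to 7.09. The call was lost with voom on recovered reads. In siRAD21 cells DRD1 was near 0 in all 4 libraries, at 0.299 and 0.378 without and 0.215 and 0.302 with OHT. Of the 5 genes with the most negative difference, ALPP, PSG5 and KCNA1 were highest at 48 h in siRAD21 cells without OHT. The placental phosphatase ALPP stood at 6.201 and 5.64 there, against 0.801 to 1.54 in siCtrl cells, and at 1.88 and 1.53 with OHT. PSG5, a pregnancy-specific glycoprotein, stood at 5.48 and 5.02 against 1.64 and 2.48 with OHT, and the potassium channel KCNA1 at 11.4 and 11.5 against 4.07 and 4.52, with a call of the difference that was lost with the 48 h groups alone in the fit. TENM2 held 20.05 to 29.8 in siCtrl cells and 12.1 to 19.0 with OHT, a smaller fall than in siRAD21 cells, and CCL24 fell in both, from 7.39 to 15.05 down to 3.22 to 4.12 in siCtrl cells.

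The replication and stress lists held most of the differences called among the lists, while ribosome biogenesis held none past the fold threshold. Ribosome biogenesis had 0 of 70 genes called in either direction in the interaction, and its median was 0.51 in siCtrl cells, with 35 of 70 higher. Its median difference of effects was 0.12, against 0.02 over all genes tested. The 3 leading rises of the list, RRP1B (0.49), LYAR (0.46) and NOLC1 (0.35), rose more in siRAD21 cells. Their differences had an adjusted p under 0.05 in limma and lay below the fold threshold. The effect on licensing genes was more positive in siRAD21 cells for 11 of 30, on fork genes for 12 of 29, on checkpoint genes for 5 of 21, on break repair for 11 of 44, on G1/S genes for 7 of 27 and on the ATF4 list for 10 of 32, against 2.73% of all genes. In siCtrl cells 0 licensing, 0 fork, 1 checkpoint, 2 break repair, 0 G1/S and 3 ATF4 genes were higher. The medians there were 0.15, 0.13, 0.05, 0.06, 0.05 and 0.04.

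The levels behind these counts started lower in siRAD21 cells. The summed eRPKM of the 30 licensing genes was 652 to 676 in siRAD21, 1022 in both siRAD21 OHT libraries, 1032 to 1076 in siCtrl and 1146 to 1197 in siCtrl OHT cells. That of the 29 fork genes was 635 to 672, 936 to 940.0, 999.7 to 1044 and 1059 to 1116 in the same order. MCM6 had 26.2 to 28.1 eRPKM in siCtrl and 33.3 to 34.1 in siCtrl OHT cells, beside 34.05 and 33.97 in siRAD21 OHT cells. PRIM1 had 40.8 to 47.9 in siCtrl and 44.5 to 50.3 in siCtrl OHT cells, above the 38.5 and 37.1 of siRAD21 OHT cells. MXD4 is a case on the other side: it fell from 14.03 to 15.01 eRPKM to 4.21 to 4.81 in siCtrl cells, more than in siRAD21 cells (difference 0.91 ± 0.12, limma, adjusted p = 0.00059).

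Matrix genes fell further in RAD21-depleted cells in some cases. In collagens and matrix 4 of 40 genes had a more negative effect in siRAD21 than in siCtrl cells, among integrins and laminins 5 of 27, against 2.77% of all genes. The collagen list had 15 of 40 lower in siCtrl cells and a median of -0.35. COL6A3 fell there from 21.9 to 26.1 eRPKM to 9.75 to 13.2, a difference of effects of -0.68 ± 0.18 (limma, adjusted p = 0.03). TGF-beta and BMP genes differed both ways, with 5 more positive and 3 more negative of 26. BAMBI, at 11.6 to 12.1 in siCtrl and 13.5 to 17.0 in siCtrl OHT cells, is 1 of the 5 (1.42 ± 0.16).

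At 24 h the OHT effect in siRAD21 cells was smaller, with 640 genes higher (4.27%) and 1131 lower (7.54%). No library is shared between the 24 h and the 48 h comparison. Of the 24 h calls, 564 rises (88.1%) and 928 falls (82.1%) were also called at 48 h, which is 31.3% and 40.9% of the 48 h lists. RAD21 stood at 18.1 and 18.6 eRPKM in the siRAD21 libraries at 24 h and at 15.85 and 15.55 with OHT, so the depletion was less deep at 24 h than at 48 h. The times therefore differ in the length of OHT, in the depth and length of the depletion and in the time in culture, which cannot be told apart.

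The effect at 48 h was more positive than at 24 h for 410 genes (2.73%) and more negative for 206 (1.37%). Of the 410, 374 were called higher at 48 h, and 270 of these were not called at 24 h. Of the 206, 196 were called lower at 48 h and 121 of these were not called at 24 h. These splits reuse the effects from which the difference is computed, so they follow in part from how the genes were picked. At 48 h, 12% of all genes tested were higher and 15.1% lower. With the siRAD21 OHT libraries separate the differences were 518 and 357. The 410 became 267 without replicate 1 of siRAD21 OHT at 24 h, and the 206 became 105 to 123 without that library (123), replicate 1 or 2 of siRAD21 at 24 h (105 and 114) or replicate 1 of siRAD21 at 48 h (116). The largest positive differences were of INSL4, a placental insulin-like peptide (2.38 ± 0.59), the testis histone HIST1H2BA (2.29 ± 0.46), CHAC1 (2.06 ± 0.18), FAM166A (1.80 ± 0.25) and CXCL14 (1.78 ± 0.20). CHAC1 had 34.2 and 31.5 eRPKM at 24 h and 31.8 and 34.8 with OHT. Among the siRAD21 libraries, those at 48 h without OHT, at 6.34 and 7.35, stand apart.

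INSL4 was measured at 1.79 and 1.75 eRPKM without and 12.6 and 10.9 with OHT at 48 h, against 1.19 and 1.16 and then 0.84 and 1.76 at 24 h. HIST1H2BA had 1.26 and 0.673 against 8.06 and 7.22 at 48 h. The largest negative differences were of IGFL4 (-2.06 ± 0.34), CCL24 (-1.52 ± 0.37), LOC100505716 (-1.50 ± 0.42), LRRN1 (-1.47 ± 0.10) and the transcription factor ZFHX3 (-1.34 ± 0.34). The calls of INSL4, CCL24, LOC100505716 and ZFHX3 were lost under 7, 8, 15 and 5 alternatives. LRRN1 fell from 23.99 and 23.95 to 12.6 and 11.6 eRPKM at 24 h, and at 48 h it fell from a higher level to a lower one. ZFHX3 went from 19.4 and 15.3 to 4.02 and 3.89 at 48 h and from 9.01 and 8.67 to 5.84 and 5.08 at 24 h.

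The comparison with 24 h shares the 48 h siRAD21 libraries with that against siCtrl cells, so the values of the lists are given for themselves. More positive at 48 h were 13 of 30 licensing, 12 of 29 fork, 6 of 21 checkpoint, 12 of 44 break repair, 5 of 27 G1/S, 5 of 64 G2/M and 11 of 32 ATF4 genes, against 2.73% of all genes. In ribosome biogenesis 3 of 70 were, RRP1B (0.71), LYAR (0.60) and NOLC1 (0.52). MCM6 stood at 28.3 and 28.4 eRPKM at 24 h and at 35.95 and 37.4 with OHT, and PRIM1 at 36.4 and 37.1 and then 38.9 and 42.8. For both genes the gap between the times was wider without OHT than with it. In collagens and matrix 5 of 40 genes and in TGF-beta and BMP response 5 of 26 were more negative at 48 h, against 1.37% of all genes.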

How the data were processed

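The deposited table gives eRPKM, reads scaled by exon length and library depth (RPKM), for 23399 genes in 18 libraries of ribosomal RNA-depleted RNA. Per the submitters' notes and methods, the authors aligned reads to hg19 with TopHat2 (2.0.8), removed PCR duplicates with SAMtools and counted over exons with featureCounts (1.4.5); the gene annotation is not given in the sources used here. Whole reads could be recovered from the RPKM steps of 22033 genes, 99.97% of those with a value above 0. A gene counted when an exon length brought all its values within 0.002 of a whole read. The depth of each library was set by 471 miRNA hairpins, and the recovered reads account for 99.91 to 99.92% of depths of 9647501 to 12678599 reads. Duplicate removal caps values (highest 174.2 eRPKM) and compresses abundant genes.

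Genes with a mean of at least 1 eRPKM over the 18 libraries were tested on log2(eRPKM + 0.5) with limma 3.58.1 in R 4.3.3, a mean for each of 8 groups, a variance trend and Benjamini-Hochberg adjustment over all genes tested. Groups came from the labels. The 2 siRAD21 OHT libraries at 48 h entered as 1 sample. The methods call the RNA-seq replicates biological, and the labels only number them, without saying that each is a separate culture. P-values measure the spread between these libraries. Same-numbered replicates did not deviate together in the siRAD21 groups (r = 0.026 at 48 h, -0.064 at 24 h) and did in siCtrl cells at 48 h (0.13 to 0.258), so the replicate block is an alternative. Coordinates came from GENCODE on GRCh37, which held 22381 of the symbols. The fit was tested on simulated data.

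The comparison and the 36 gene lists were chosen with earlier results of these data known. Named are RAD21 and MYC, the 10 largest rises and falls among called genes with at least 5 eRPKM in 1 group and no overlap (small RNAs left out), up to 3 called members of each list in each direction, the 5 largest differences of effects in each direction, and members that complete a list of at most 13 or a complex. A few further members, named for a level or to complete a group, were chosen after their values were seen. Alternatives were other pseudocounts, filters, scalings, samples in the fit, spread estimates and thresholds, voom on recovered reads, and leaving out each library. Figures were drawn with matplotlib 3.10.9.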

Additional observations from a re-analysis of the deposited data

Results flagged for a closer look

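All results given here are differences between 2 effects of OHT under the same contrast, tested as an interaction in limma with Benjamini-Hochberg adjustment. Against siCtrl cells at 48 h, the effect in siRAD21 cells was more positive for 409 and more negative for 416 genes. The largest positive differences (log2) were of CXCL14 (3.39), RGS16 (2.59), DRD1 (2.17), LPL (2.10) and MFSD2A (2.09), and the largest negative ones of ALPP (-1.71), PSG5 (-1.70), TENM2 (-1.69), CCL24 (-1.67) and KCNA1 (-1.67). Among the lists, the effect was more positive for 11 licensing and firing, 12 fork, 5 checkpoint, 11 break repair, 7 G1/S, 5 TGF-beta and BMP and 10 ATF4 genes, and more negative for 5 integrin and laminin genes.

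Against 24 h, the effect at 48 h in siRAD21 cells was more positive for 410 and more negative for 206 genes. The largest positive differences were of INSL4 (2.38), HIST1H2BA (2.29), CHAC1 (2.06), FAM166A (1.80) and CXCL14 (1.78), and the largest negative ones of IGFL4 (-2.06), CCL24 (-1.52), LOC100505716 (-1.50), LRRN1 (-1.47) and ZFHX3 (-1.34). More positive were 13 licensing and firing, 12 fork, 6 checkpoint, 12 break repair, 5 G1/S, 5 G2/M and 11 ATF4 genes, and more negative 5 collagen and matrix and 5 TGF-beta and BMP genes. Of the named differences from 24 h, those of ZFHX3, INSL4, CCL24 and LOC100505716 lost their call under 5, 7, 8 and 15 alternatives, each without replicate 1 or 2 of siRAD21 at 24 h, replicate 1 of siRAD21 at 48 h or replicate 1 of siRAD21 OHT at 24 h among others.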

How the results depend on the processing

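Counts of called genes were within 1.5 times of those given under every alternative except the following. Without a fold threshold the counts higher and lower were 3912 and 3647 for OHT in siRAD21 cells at 48 h, 882 for the more positive difference from siCtrl cells, 793 and 314 for the difference from 24 h, 3822 and 3987 for OHT in siCtrl cells at 48 h and 2412 and 2614 in siRAD21 cells at 24 h. Past a log2 fold change of 1 they were 457 and 610, 75 and 100, 61 and 38, 224 and 292, and 146 and 147 in the same order. With a mean of at least 5 eRPKM, which tests fewer genes, 1271, 272, 805 and 586 genes were lower in the 48 h siRAD21 comparison, the difference from siCtrl cells, the siCtrl comparison and the 24 h comparison. The more negative difference from siCtrl cells was 220.0 with the 48 h groups alone and 654 with voom on recovered reads. The more negative difference from 24 h was 464 with voom, 357 with both siRAD21 OHT libraries kept separate and 525 with the compared groups alone. With the replicate block and both libraries separate, the more negative differences were 686 and 451 genes, and OHT in siRAD21 cells at 48 h gave 1858 and 2445; it moved no other count by over 1.5 times. Leaving out 1 library at a time gave 1722 to 1875 and 1926 to 2351 genes higher and lower for OHT in siRAD21 cells at 48 h, 323 to 455 and 234 to 527 for the difference from siCtrl cells, 267 to 452 and 105 to 267 for the difference from 24 h, 1117 to 1245 and 1398 to 1684 for OHT in siCtrl cells, and 561 to 669 and 965 to 1151 in siRAD21 cells at 24 h. The 234 came without replicate 1 of siRAD21 at 48 h and the 267 more positive differences without replicate 1 of siRAD21 OHT at 24 h. The more negative difference from 24 h was 105 and 114 without replicate 1 and 2 of siRAD21 at 24 h, 116 without replicate 1 of siRAD21 at 48 h and 123 without replicate 1 of siRAD21 OHT at 24 h. The median of the clock list (-0.05) was 0.016 with the GC and length trend removed and 0.013 with a mean of at least 5 eRPKM. Of 164 results for named genes, 22 lost their call under at least 1 alternative, IRF7 under 19 of them. These counts leave out the changed fold thresholds and genes that a stricter filter did not test. Besides the counts given with the lists, amino acid carriers called higher were 8 with the GC and length trend removed. Where a count moved for a reason other than fewer genes, fewer samples or the threshold itself, the cause was not tested.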

Other observations

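The gene families in this part were chosen by the start of their symbols after values had been seen, so their counts are descriptions. Mitochondrial ribosomal proteins were higher in siRAD21 OHT than in siRAD21 cells at 48 h in 33 of 79 genes and lower in 0 (median log2 fold change 0.46), led by MRPS25 at 16.9 and 17.5 against 38.4 and 37.3 eRPKM. Cytosolic ribosomal proteins were higher in 2 of 79 (2.53%, below the 12% of all genes tested, median 0.20), in a range of levels where duplicate removal caps the values. Nuclear pore proteins were higher in 8 of 19 (42.1%) and lower in 0. The share higher of the mitochondrial ribosomal proteins was 41.8%.

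Subunits of the RNA polymerases did not move alike. POLR3G, an alternative subunit of RNA polymerase III known from stem cells and tumours, went from 9.99 and 10.5 to 51.8 and 50.2 eRPKM (2.26 ± 0.09), while its paralog POLR3GL fell from 33.7 and 37.9 to 23.3 and 25.7 (-0.54 ± 0.16; limma, adjusted p = 0.014). The same genes in siCtrl cells gave log2 fold changes of 1.41 and -0.73 at 48 h. Of the 5 RNA polymerase I subunits 3 were higher, among them POLR1B (0.90) and POLR1C (0.77).

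Clustered protocadherins, adhesion molecules expressed from 3 gene arrays with CTCF sites, were lower on OHT in 19 of 23 genes in siRAD21 cells and in 19 of 23 in siCtrl cells at 48 h. PCDHB11 went from 9.50 and 9.23 to 1.55 and 1.62 eRPKM (-2.24 ± 0.27) and PCDHB10 from 4.50 and 4.84 to 0.730 and 0.718. Their exons are much alike, so reads may be split between copies. HOX genes were lower in 15 of 28 (53.6%, against 15.1% of all genes tested) and higher in 4 (14.3%, near the 12% of all genes). The 3 pregnancy-specific glycoproteins tested, PSG4, PSG5 and PSG9, near-identical copies, were lower on OHT in siRAD21 cells (-1.005, -1.16 and -0.73) and higher in siCtrl cells (0.65, 0.53 and 0.64), and the difference was called for all 3.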
